A study of Homo sapiens with 6 samples.

Results

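The response to the LM2-bearing lung was compared between 2 clones of ITGB4-low SUM159 cells, a human triple-negative breast cancer line sorted in the labels into ITGB4-high and ITGB4-low cells. ITGB4 is the integrin beta-4 chain, which anchors hemidesmosomes. The response of a clone is the log2 ratio of its level in cells recovered from mouse lungs that also held LM2 cells over its level in cultured control cells, and the difference is the response of clone 1 minus that of clone 3. Genes were kept where the mean over the 6 libraries of the series was 4 CPM (counts scaled to a library sum of 1000000) or more, which left 10919 of 58336 genes. Just inside this limit stood AARSD1 at a mean of 4.001 CPM and HOTAIRM1 at 4.006 CPM, and just outside it stood EEF1A1P29 and RIMS2, both at 3.999 CPM.

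Clone 1 and clone 3 from the LM2 lung are each 1 library of ITGB4-low SUM159 cells, given to mice by way of the tail vein, with LM2 cells, a lung-seeking line derived from MDA-MB-231 breast cancer cells, given alongside. Lungs were dissociated, the suspension was kept in a dish overnight and tdTomato-positive cells were sorted, so dissociation, overnight culture and sorting go with the LM2 lung and cannot be told apart from it. The controls are 1 library each of the same clones grown in dishes. The series also holds clone 1 from the lungs of mice given bleomycin, a drug that injures the lung, through the trachea, and cultured ITGB4-high SUM159 cells, which serve here for levels set side by side. The treatment text names clone 1 alone, so the origin of the LM2 library of clone 3 rests on its title. The labels do not say how many mice gave each library, or whether LM2 cells carried tdTomato.

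Each arm is 1 library of 1 clone, so a model with clone, trigger and their interaction leaves 0 residual degrees of freedom and no difference was tested. A gene is counted below where its log2 value was 1 or more in size (2-fold), a threshold of size with no test, and the standard error given with a difference covers counting error only. Differences between animals, sorts and library preparations are not in it. Total counts of the 4 libraries ran from 13647997 to 22222121, the floor of 3 counts lay between 0.141 and 0.231 CPM, and mitochondrially encoded genes took 5.39% to 6.10% of counts. CPM values are not scaled for transcript length, so they compare libraries for a gene, not genes with each other. In bulk RNA, fewer cells of a type and less RNA per cell cannot be told apart.

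Interleukin-1, tumour necrosis factor and Toll-like receptors activate NF-kB, a family of transcription factors that switch on chemokines, cytokines and their own inhibitors, usually together with the kinases that feed AP-1. EGF-family ligands such as amphiregulin and epiregulin act through the EGF receptor and the MAPK cascade, whose output genes include the dual-specificity phosphatases that dampen it. Type I interferon acts on a separate set of antiviral genes with interferon-stimulated response elements in their promoters.

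Promoters of genes on which the comparison turns are shown here. CXCL8 and CXCL3 are on the inflammatory list and HBEGF on the MAPK output list, and IL7R has one of the largest differences, all with the larger response in clone 1. IFIT1 and IFIT3 are on the interferon list, with the larger response in clone 3. They are the 250 bases before the annotated start in RefSeq (GRCh38.p14), written 5′ to 3′ on the strand of the gene. CXCL8 is at chr4:73740319-73740568 on the plus strand, IL7R at chr5:35856641-35856890 on the plus strand, HBEGF at chr5:140346604-140346853 on the minus strand, CXCL3 at chr4:74038690-74038939 on the minus strand, IFIT1 at chr10:89392373-89392622 on the plus strand and IFIT3 at chr10:89327747-89327996 on the plus strand. Capitals mark kappa-B matches (GGANNTTCC) in the first 4 sequences, also an AP-1 match (TGANTCA) in CXCL8, and matches to an interferon-stimulated response element (ISRE, searched as TTTCNNTTT) in IFIT1 and IFIT3. The IL7R match and the first match in IFIT1 read on the opposite strand.
CXCL8: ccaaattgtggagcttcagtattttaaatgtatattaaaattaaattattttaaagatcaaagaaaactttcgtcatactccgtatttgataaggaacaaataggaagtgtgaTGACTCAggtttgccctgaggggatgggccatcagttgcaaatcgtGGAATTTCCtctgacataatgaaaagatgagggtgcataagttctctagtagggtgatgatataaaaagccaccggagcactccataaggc
IL7R: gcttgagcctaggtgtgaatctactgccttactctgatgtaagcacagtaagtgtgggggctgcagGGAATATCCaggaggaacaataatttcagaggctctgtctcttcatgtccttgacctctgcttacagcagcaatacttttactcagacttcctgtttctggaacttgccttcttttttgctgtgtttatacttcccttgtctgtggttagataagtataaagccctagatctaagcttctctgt
HBEGF: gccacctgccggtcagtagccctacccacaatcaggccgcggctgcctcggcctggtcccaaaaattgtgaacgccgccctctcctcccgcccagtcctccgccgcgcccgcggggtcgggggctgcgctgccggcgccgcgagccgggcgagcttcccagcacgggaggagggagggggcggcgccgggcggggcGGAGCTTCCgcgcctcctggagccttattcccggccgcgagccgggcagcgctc
CXCL3: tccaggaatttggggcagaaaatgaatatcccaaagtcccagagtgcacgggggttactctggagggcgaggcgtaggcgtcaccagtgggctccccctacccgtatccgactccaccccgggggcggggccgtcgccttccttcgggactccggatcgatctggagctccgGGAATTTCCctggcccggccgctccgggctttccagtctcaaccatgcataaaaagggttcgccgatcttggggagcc
IFIT1: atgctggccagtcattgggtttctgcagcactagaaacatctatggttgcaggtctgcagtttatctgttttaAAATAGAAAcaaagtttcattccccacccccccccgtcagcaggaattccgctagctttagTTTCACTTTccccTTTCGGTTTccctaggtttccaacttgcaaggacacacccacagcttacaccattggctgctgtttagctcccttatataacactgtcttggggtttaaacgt
IFIT3: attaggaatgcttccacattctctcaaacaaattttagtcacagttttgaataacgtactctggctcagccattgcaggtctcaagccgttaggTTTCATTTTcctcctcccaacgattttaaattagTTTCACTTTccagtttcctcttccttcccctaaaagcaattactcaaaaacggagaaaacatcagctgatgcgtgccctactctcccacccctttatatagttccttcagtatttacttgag

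The motifs were chosen after the values were seen and were searched on both strands: kappa-B as GGANNTTCC and, in a G-rich form that can overlap it, as GGGANTTTC, AP-1 as TGANTCA, CRE as TGACGTCA, TEAD as GGAATG, ETS as CCGGAAGT and ISRE as TTTCNNTTT. Of the 10919 genes, 8797 matched the promoter table. GGANNTTCC was in 3.88% of all 27305 promoters of the table and 3.96% of the matched genes. It was in 8.85% of 339 genes whose difference and clone 1 response were both 2-fold or more higher, and in 2.58% of 387 genes whose difference was 2-fold or more lower. Among inflammatory genes it was in 11 of 25 promoters, those of REL, NFKBIZ, CXCL8, CXCL3, CXCL2, NFKB1, TNFAIP3, IL6, NFKBIA, IL32 and ICAM1. That list is one of NF-kB and inflammatory cytokine genes, so its share is not independent of how it was chosen. GGANNTTCC was also in 4 of 24 promoters of the type I interferon list and 3 of 18 of the MAPK output list.

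The ISRE motif was in 19 of 24 promoters of the type I interferon list, against 9.28% of all promoters and 6.25% of the matched genes. That list is one of interferon response genes, so this share too is not independent of how the list was chosen. In the same sets of 339 and 387 genes it was in 8.55% and 7.49% of promoters. The form GGGANTTTC was in 1.15% of all promoters, 1.08% of the matched genes, 3.24% of the 339 and 0 of the 387. AP-1 was in 6.60% of all promoters but 3.65% of the matched genes, and in 8.85% and 4.39% of the 2 sets. CRE was in 1.77% of all promoters and 3.09% of the matched genes, and in 2.36% of the 339 and 0.775% of the 387. ETS was in 3.64% of all promoters and 7.99% of the matched genes, and in 4.13% of the 339 and 1.29% of the 387. TEAD was in 11.9% of all promoters and 9.30% of the matched genes, and in 7.08% of the 339 and 10.1% of the 387. ETS, CRE and TEAD were less frequent in the 339 than in the matched genes, while kappa-B, AP-1 and ISRE were more frequent. In the 387, too, ETS and CRE were less frequent and AP-1 and ISRE more frequent than in the matched genes. Only kappa-B, in both forms, and TEAD went opposite ways in the 2 sets. The 339 include genes of the inflammatory list, such as CXCL8 and CXCL3. The presence or absence of these letters describes the window and not binding.

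Clone 1 had the wider response. The response was 2-fold or more in 1658 genes (15.2%) in clone 1 and 590 (5.4%) in clone 3. It was higher in 787 genes (7.21% of 10919) and lower in 871 (7.98%) in clone 1, against 226 higher (2.07%) and 364 lower (3.33%) in clone 3. The SD of the response over genes was 0.98 in clone 1 and 0.59 in clone 3 on the log2 scale. The difference of responses was 2-fold or more in 1163 genes (10.7%), of which 626 were higher in clone 1 (5.73%) and 537 lower (4.92%). Higher genes made up 53.8% of these, and 31.4% when libraries were scaled by their totals alone, a scaling that moved the median difference of all genes by -0.24 on the log2 scale.

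The clones lay close together in culture and apart in the LM2 lung. Clone 1 over clone 3 was 2-fold or more apart in 1061 genes (9.72%) between the LM2 libraries and in 61 genes (0.559%) between the controls. The SD of that log2 ratio was 0.73 between the LM2 libraries and 0.22 between the controls. Of the 1163 genes with a difference, 48 had controls 2-fold or more apart, a larger share than the 0.559% of all genes. The ratio of the controls enters the difference, so genes with controls apart pass the threshold more readily. Controls within 1.25-fold of each other were found for 751 of the 1163, a share that was not counted over all genes. The counting error was small beside these values, with a median standard error of 0.118 over all genes. Past 2 counting standard errors were 1156 of the 1163 differences, which at such errors follows largely from the 2-fold threshold.

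**Figure D1:**
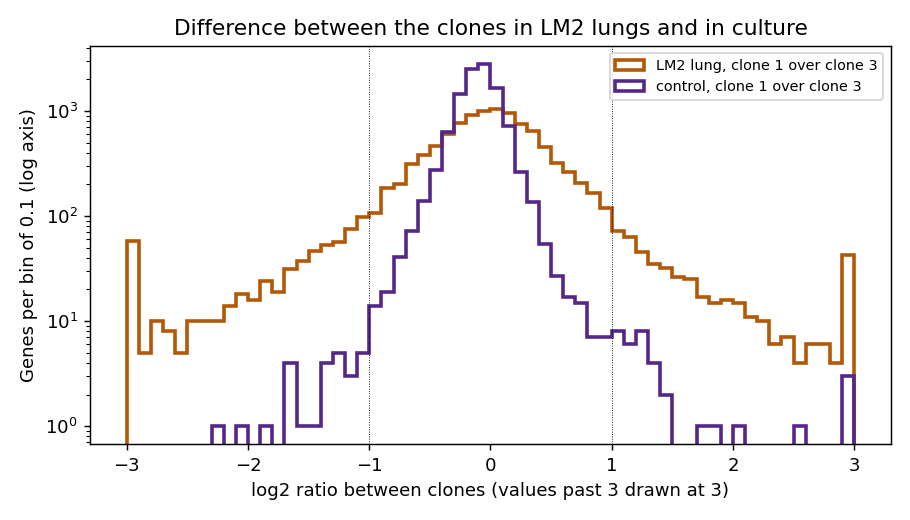
Distribution over 10919 genes of the log2 ratio of clone 1 over clone 3 between the LM2-lung libraries and between the control libraries, 1 library per clone and condition. The LM2 distribution is the wider, with an SD of 0.73 against 0.22 for the controls.

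Genes past 2-fold in clone 3 were mostly past it in clone 1, while most genes past it in clone 1 were not past it in clone 3. Of the genes 2-fold or more higher, 160 were shared, which is 20.3% of the genes of clone 1 and 70.8% of those of clone 3. Of the lower genes, 267 were shared, 30.7% and 73.4% of the 2 lists. The genes that were higher in clone 1 had a median response of 0.38 in clone 3, and those higher in clone 3 had a median response of 2.13 in clone 1. Over all genes the 2 responses had a Pearson r of 0.63 and a Spearman rho of 0.52, across genes that are not independent replicates, with a separate control library for each clone.

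The 626 genes with the higher response in clone 1 were mainly genes that moved in clone 1 alone: 372 were 2-fold or more higher in clone 1 only, 69 higher in both and 38 lower in clone 3 only. Another 9 were higher in clone 1 and lower in clone 3, 10 were lower in both, and 128 passed 2-fold in neither response. Among the 537 genes with the lower difference, 313 were lower in clone 1 only, 103 lower in both, 46 higher in clone 3 only, 13 higher in both, 3 lower in clone 1 and higher in clone 3, and 59 in neither. In the bleomycin library, which shares the control of clone 1, the median log2 ratio to control was 0.76 over the 626 genes and -0.71 over the 537.

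**Figure D2:**
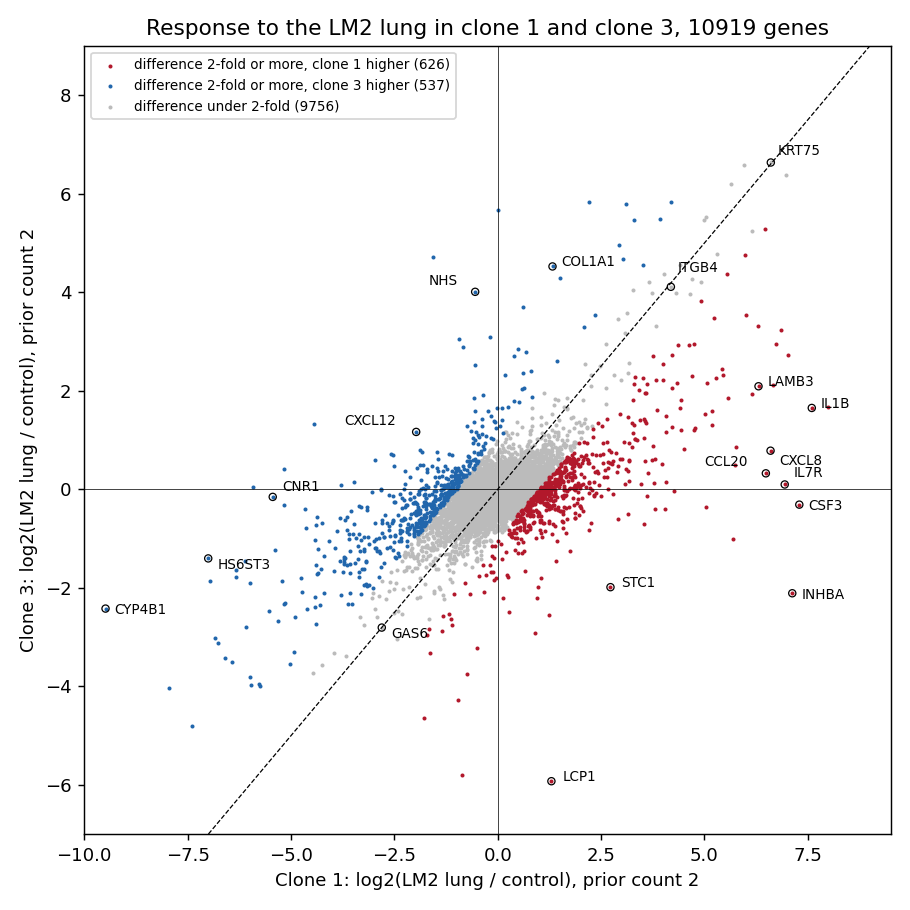
Response of clone 1 (horizontal) and of clone 3 (vertical) to the LM2 lung, as log2 ratios of LM2 lung over control with a prior count of 2, 1 point per gene. The 626 genes with the higher response in clone 1 lie right of the dashed line of equality and the 537 with the lower response in clone 1 lie left of it, while ITGB4 and KRT75 lie on the line.

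ITGB4 itself, at chr17:75721328-75757818, had the same response in both clones within counting error. Its level was 468 CPM in LM2-lung cells and 25.6 CPM in control cells of clone 1, and 437 CPM in LM2-lung cells and 25.2 CPM in control cells of clone 3. The log2 responses were 4.19 and 4.11, with a difference of 0.08 (counting SE 0.10), or -0.17 with library totals alone. ITGB4 stood at 385 CPM in the ITGB4-high cells. In all, 98 genes had responses of 4-fold or more in the same direction in both clones, 57 higher and 41 lower.

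KRT75, a keratin of the hair follicle, was among the higher shared genes. It had 272 CPM in LM2-lung and 2.67 CPM in control cells of clone 1, and 241 CPM in LM2-lung and 2.30 CPM in control cells of clone 3. GAS6, the ligand of the AXL receptor kinases, was among the lower ones, with 20.7 CPM in LM2-lung and 146 CPM in control cells of clone 1, and 24.999 CPM in LM2-lung and 176 CPM in control cells of clone 3. By the same rule FAM83B and ARHGEF3 were higher, and ADD3 and ANKRD1 lower, with differences between -0.06 and 0.06. The genes of this paragraph were named for having the smallest differences among the 98 shared genes. That their 2 LM2 libraries lay together and apart from the 2 controls follows from this choice. Other shared genes differed more, such as LAMB3 with a difference of 4.22.

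Inflammatory cytokines and NF-kB genes stood out by size. Of 32 measured genes on that list, the difference was 2-fold or more higher in 25 (against 5.73% of all genes). It was 2-fold or more lower in 1 (against 4.92%), and above 0 in 31 of the listed genes. Their median response was 3.51 in clone 1 and 0.66 in clone 3, and their median difference was 2.49, against 0.08 over all genes. The median ratio of bleomycin over control in clone 1 was 2.54.

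CSF3, the granulocyte growth factor G-CSF, had 116 CPM in LM2-lung and 0.615 CPM in control cells of clone 1, against 0.316 CPM in LM2-lung and 0.423 CPM in control cells of clone 3. The difference was 7.60 (counting SE 0.82) on the log2 scale, from 9 counts in the control of clone 1. CSF3 was high in 1 of the 4 libraries, and stood at 45.9 CPM in the bleomycin library. IL7R, the receptor chain for interleukin-7, was likewise high in 1 of the 4 libraries, with 251 CPM in LM2-lung and 1.91 CPM in control cells of clone 1. It had 1.52 CPM in LM2-lung and 1.41 CPM in control cells of clone 3, and the difference was 6.84 (counting SE 0.46). In the bleomycin library IL7R stood at 18.6 CPM, above the control of clone 1.

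CCL20, which attracts cells that carry CCR6, had 207 CPM in LM2-lung and 2.19 CPM in control cells of clone 1, and 2.15 CPM in LM2-lung and 1.69 CPM in control cells of clone 3, a difference of 6.16 (counting SE 0.42). IL1B, an interleukin-1 ligand, had 144 CPM in LM2-lung and 0.615 CPM in control cells of clone 1, and 4.11 CPM in LM2-lung and 1.22 CPM in control cells of clone 3, a difference of 5.94 (counting SE 0.54). Both ligands were far higher in the LM2 library of clone 1 than in the other 3 libraries. CXCL8, the neutrophil attractant interleukin-8, had 1053 CPM in LM2-lung and 10.7 CPM in control cells of clone 1, and 34.2 CPM in LM2-lung and 19.8 CPM in control cells of clone 3. Its difference was 5.81 (counting SE 0.15), and its promoter above carries both a kappa-B and an AP-1 match. The controls of CXCL8 were 0.87 apart on the log2 scale, higher in clone 3, and its LM2 library of clone 1 was far above the other 3 libraries.

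Outside the naming rule, and chosen after their values were seen, further inflammatory genes show how the list varied. IL1A, the other interleukin-1 agonist, had 966 CPM in LM2-lung and 9.02 CPM in control cells of clone 1, and 61.6 CPM in LM2-lung and 7.85 CPM in control cells of clone 3, so both clones passed 2-fold and clone 1 by more. SOD2, the mitochondrial superoxide dismutase, had 5588 CPM in LM2-lung and 879 CPM in control cells of clone 1, and 1434 CPM in LM2-lung and 1433 CPM in control cells of clone 3. The log2 response of SOD2 was 2.67 in clone 1 and 0.00 in clone 3. TNFAIP3, an inhibitor of NF-kB, had a difference of 2.59 (counting SE 0.10), and REL, an NF-kB subunit, one of 0.04 (counting SE 0.15).

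CCL5, a chemokine for T cells and monocytes, was the 1 listed gene with the lower difference. It had 5.55 CPM in LM2-lung and 0.615 CPM in control cells of clone 1, and 14.2 CPM in LM2-lung and 0.329 CPM in control cells of clone 3, a difference of -2.04 (counting SE 0.68). Its levels were low in both controls, and both LM2 libraries were higher.

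Markers of blood cells were measured beside these genes, since a sort from lung could hold other cells. The lungs were those of mice and the counts are of human genes, with the handling of mouse reads not given. Low counts of a marker, here and in the lists of other cells below, therefore cannot show whether mouse cells were in the sort. The myeloid list summed to 6.17 CPM in LM2-lung and 10.7 CPM in control cells of clone 1, and to 6.27 CPM in LM2-lung and 10.5 CPM in control cells of clone 3. CD45 (PTPRC) had 30 counts in LM2-lung and 3 in control cells of clone 1, and 4 counts in each library of clone 3. ITGAM had 7 counts in LM2-lung and 0 in control cells of clone 1, and 1 in LM2-lung and 0 in control cells of clone 3. CD163 had 4 counts in LM2-lung and 45 in control cells of clone 1, and 9 in LM2-lung and 78 in control cells of clone 3, and MARCO was also above the floor in all 4 libraries. In each library 13 of the 20 genes lay at or under the floor, and FCGR3A, AIF1, C1QA, C1QB, C1QC and SPI1 had 0 counts in all 4. Of the lymphocyte list, 12 of 13 genes lay at or under the floor of 3 counts in each of the 4 libraries and IL7R alone was above it, and CD3D, CD3E, CD2, CD8A, MS4A1 and CD79B had 0 counts in all 4.

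The lung epithelial list of 10 genes summed to 3.86 CPM in LM2-lung and 6.56 CPM in control cells of clone 1, and to 4.24 CPM in LM2-lung and 5.87 CPM in control cells of clone 3. SFTPA1, SFTPC, SCGB1A1 and HOPX had 0 counts in all 4 libraries. AGER had 49 counts in LM2-lung and 33 in control cells of clone 1, and 45 in LM2-lung and 39 in control cells of clone 3. NKX2-1 had 0 counts in LM2-lung and 59 in control cells of clone 1, and 22 in LM2-lung and 85 in control cells of clone 3. No other member was above the floor in any of the 4 libraries, and both controls held AGER and NKX2-1.

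Of 10 endothelial genes, CDH5 had 0 counts in all 4 libraries. PECAM1 had 30 counts in LM2-lung and 26 in control cells of clone 1, and 57 in LM2-lung and 44 in control cells of clone 3. ROBO4 had 21 counts in LM2-lung and 1 in control cells of clone 1, and 3 in LM2-lung and 9 in control cells of clone 3, so it was highest in LM2-lung cells of clone 1. The list summed to 4.47 CPM in LM2-lung and 72.3 CPM in control cells of clone 1, and to 10.5 CPM in LM2-lung and 111 CPM in control cells of clone 3, mostly KDR in the controls. The part of other cells in the differences was not tested.

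EGF-family ligands and other MAPK output genes followed the cytokines. Of 27 listed MAPK output genes, the difference was 2-fold or more higher in 18 (against 5.73% of all genes) and lower in 1, EGR1 (against 4.92% of all genes), with a median of 1.17. The median response was 1.23 in clone 1 and -0.01 in clone 3. HBEGF, a heparin-binding EGF receptor ligand, had 68.2 CPM in LM2-lung and 5.74 CPM in control cells of clone 1, and 4.30 CPM in LM2-lung and 7.05 CPM in control cells of clone 3, a difference of 4.24 (counting SE 0.26). PHLDA1, an early target of growth factor signalling, had 368 CPM in LM2-lung and 26.7 CPM in control cells of clone 1, and 34.9 CPM in LM2-lung and 31.7 CPM in control cells of clone 3, a difference of 3.64 (counting SE 0.11). In both genes the LM2 library of clone 1 was far above the other 3 libraries.

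AREG, amphiregulin, had 468 CPM in LM2-lung and 12.8 CPM in control cells of clone 1, and 31.5 CPM in LM2-lung and 10.3 CPM in control cells of clone 3, a difference of 3.59 (counting SE 0.16). EREG, epiregulin, had 1952 CPM in LM2-lung and 89.9 CPM in control cells of clone 1, and 212 CPM in LM2-lung and 92.1 CPM in control cells of clone 3, a difference of 3.24 (counting SE 0.06). Amphiregulin and epiregulin passed 2-fold in both clones, more so in clone 1. EPGN, epigen, had 101 CPM in LM2-lung and 0.273 CPM in control cells of clone 1, and 1.77 CPM in LM2-lung and 0.470 CPM in control cells of clone 3, a difference of 6.31 (counting SE 0.77). EGR1, an immediate early transcription factor, had 153 CPM in LM2-lung and 438 CPM in control cells of clone 1, and 442 CPM in LM2-lung and 604 CPM in control cells of clone 3, a difference of -1.07 (counting SE 0.04).

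**Figure D3:**
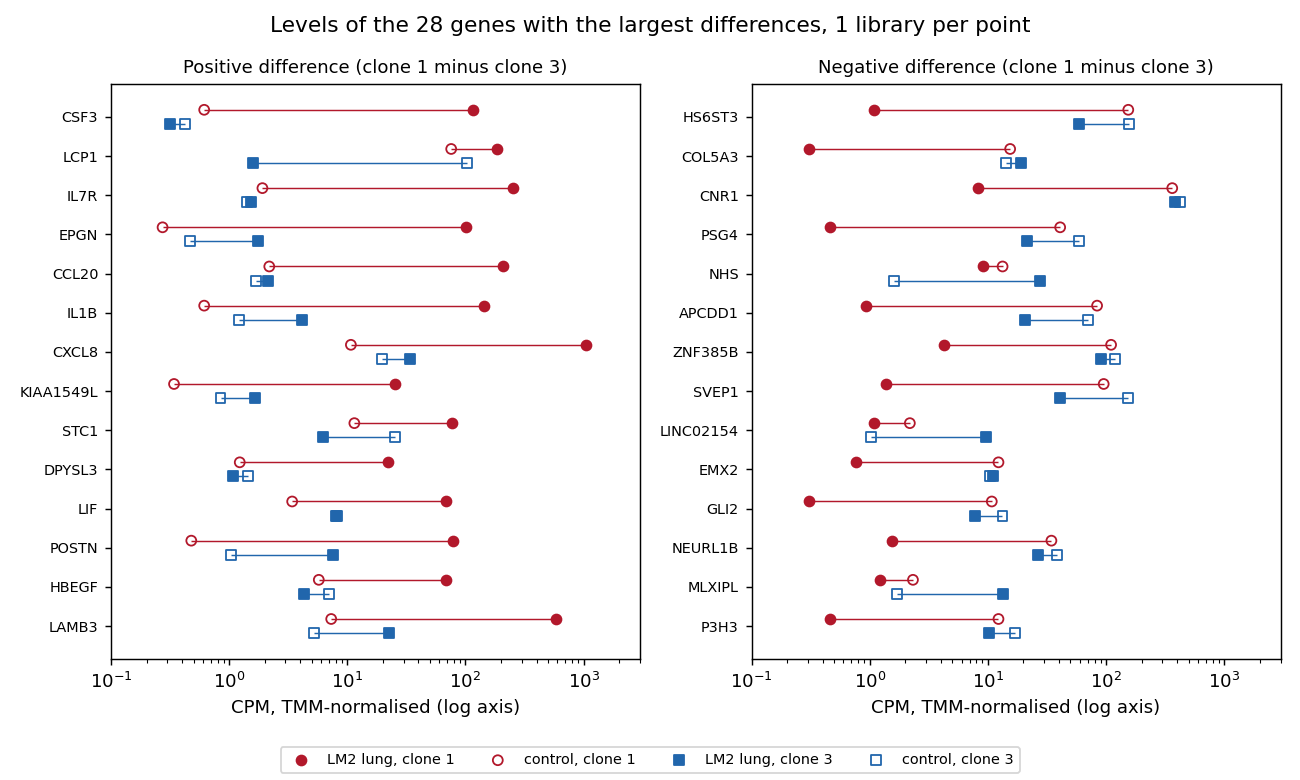
Levels in CPM, on a log axis, of the 14 genes with the largest positive and the 14 with the largest negative difference, 1 library per point, with a line from control to LM2 lung in each clone. For CSF3, IL7R, CCL20 and CXCL8 the LM2 library of clone 1 lies far right of the other 3, and for CNR1 and COL5A3 it lies far left of them.

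Among the other genes with the largest positive differences were secreted and adhesion proteins. LIF, a cytokine of the interleukin-6 family, had 68.4 CPM in LM2-lung and 3.42 CPM in control cells of clone 1, and 8.04 CPM in LM2-lung and 8.22 CPM in control cells of clone 3, a difference of 4.30 (counting SE 0.27). POSTN, the matrix protein periostin, had 78.5 CPM in LM2-lung and 0.479 CPM in control cells of clone 1, and 7.59 CPM in LM2-lung and 1.03 CPM in control cells of clone 3, a difference of 4.29 (counting SE 0.58). LIF had a response of -0.03 in clone 3, while POSTN passed 2-fold in both clones. KIAA1549L and DPYSL3, a neuronal cytoskeletal regulator, had differences of 4.89 (counting SE 0.69) and 4.44 (counting SE 0.53). The controls of LIF and KIAA1549L were past 2-fold apart, higher in clone 3 by 1.24 and 1.05 on the log2 scale.

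PDGFRA, a receptor for platelet-derived growth factor, had 447 CPM in LM2-lung and 32.1 CPM in control cells of clone 1, and 27.3 CPM in LM2-lung and 35.9 CPM in control cells of clone 3, a difference of 4.19 (counting SE 0.11). It stood at 219.6 CPM in the bleomycin library. Like LIF, it was high in the LM2 library of clone 1 and not in that of clone 3.

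LAMB3, the beta chain of the hemidesmosome's ligand laminin-332, had a difference where ITGB4 had none beyond counting error. LAMB3 had 590 CPM in LM2-lung and 7.32 CPM in control cells of clone 1, and 22.7 CPM in LM2-lung and 5.22 CPM in control cells of clone 3, a difference of 4.22 (counting SE 0.21). LAMB3 was past 2-fold higher in both clones, and by more in clone 1. LAMA3, the alpha chain, went the other way, with 32.4 CPM in LM2-lung and 41.7 CPM in control cells of clone 1, and 66.6 CPM in LM2-lung and 35.9 CPM in control cells of clone 3, a difference of -1.25 (counting SE 0.11). On the whole hemidesmosome list of 11 genes, 4 differences were 2-fold or more higher (against 5.73% of all genes) and 1 lower (against 4.92%).

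Keratins and junction genes had small median differences as lists, of 0.03 over 8 keratins and 0.03 over 9 junction genes. With libraries scaled by their totals alone these medians were -0.21 and -0.22. With no filter other than a count above 0 the junction median was 0.45. The median of the keratin responses themselves was 3.40 in clone 1 and 1.98 in clone 3. Single keratins differed in both directions. Of the 8, 2 differences were 2-fold or more higher (against 5.73% of all genes) and 1 lower, KRT80 (against 4.92%). The higher ones were KRT5 at 1.18 (counting SE 0.31) and KRT6A at 2.98 (counting SE 0.84), the latter from 2 counts in the control of clone 1. CLDN1, the tight junction protein claudin-1, was the 1 junction gene of 9 with a difference past 2-fold (against 10.7% of all genes). It had 388 CPM in LM2-lung and 5.88 CPM in control cells of clone 1, and 65.4 CPM in LM2-lung and 5.55 CPM in control cells of clone 3, a difference of 2.49 (counting SE 0.21). KRT80 had 27.7 CPM in LM2-lung and 76.9 CPM in control cells of clone 1, and 69.0 CPM in LM2-lung and 63.2 CPM in control cells of clone 3, a difference of -1.60 (counting SE 0.11). Reads shared between keratin paralogs make their counts uncertain.

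**Figure D4:**
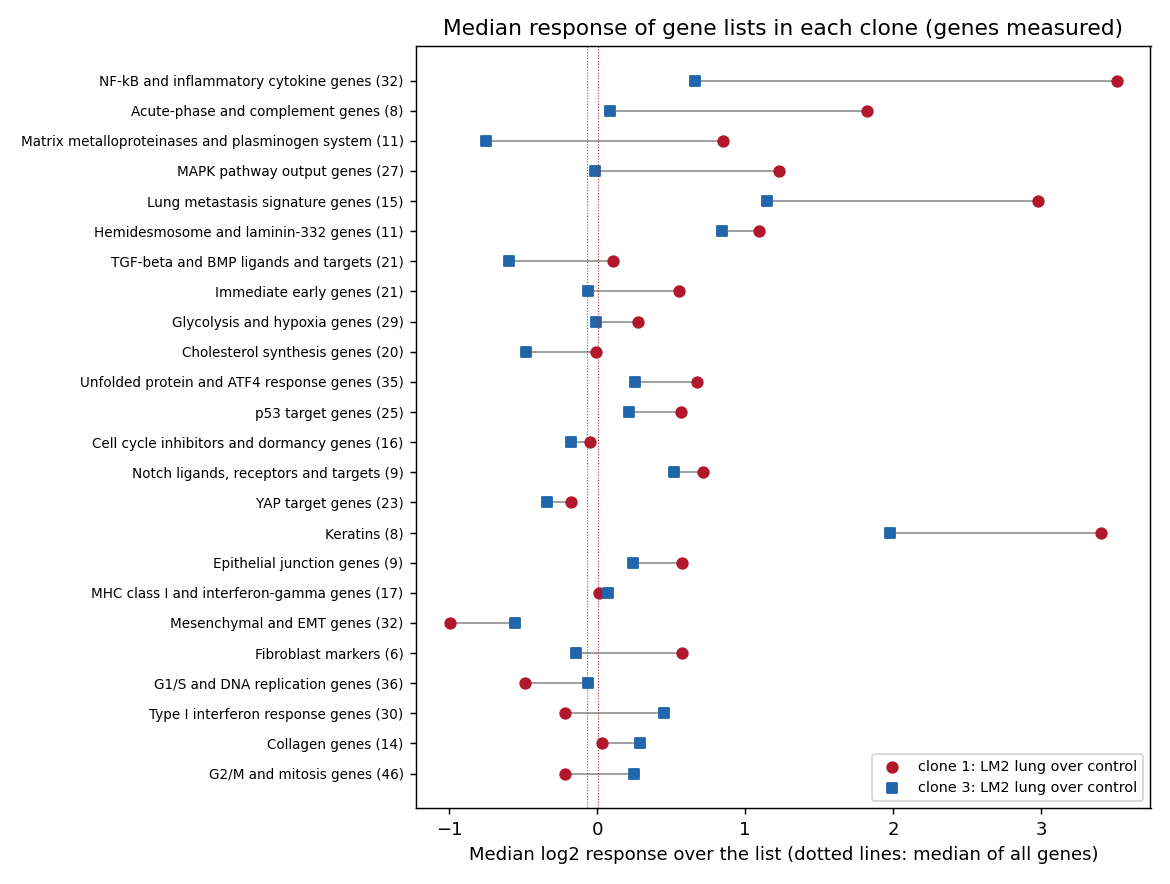
Median response of clone 1 and of clone 3 over the measured members of each gene list with 5 or more, in log2 units, as a description without a test. The NF-kB list lies farthest apart, at 3.51 in clone 1 and 0.66 in clone 3, and the type I interferon list lies the other way, at -0.21 in clone 1 and 0.45 in clone 3.

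Type I interferon genes leaned the other way. Of 30 measured, 0 had a difference of 2-fold or more higher and 4 lower (against 4.92% of all genes), and the median difference was -0.45. Their median response was -0.21 in clone 1 and 0.45 in clone 3. IFIT3, an antiviral protein of the IFIT family, had 12.95 CPM in LM2-lung and 19.3 CPM in control cells of clone 1, and 54.2 CPM in LM2-lung and 20.9 CPM in control cells of clone 3, a difference of -1.95 (counting SE 0.16). IFIT1, another member, had 8.02 CPM in LM2-lung and 10.4 CPM in control cells of clone 1, and 23.2 CPM in LM2-lung and 10.5 CPM in control cells of clone 3, a difference of -1.50 (counting SE 0.22). The LM2 library of clone 3 was the highest of the 4 for both genes, whose promoters above carry 3 ISRE matches in IFIT1 and 2 in IFIT3. IFIT2 and OASL, a relative of the OAS antiviral enzymes, had differences of -1.64 (counting SE 0.14) and -1.46 (counting SE 0.23). The MHC class I and interferon-gamma list had a median difference of -0.06 over 17 genes. Of these, 1 was 2-fold or more higher (against 5.73% of all genes) and 0 lower.

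Of 14 collagens measured, 5 differences were 2-fold or more lower (against 4.92% of all genes) and 2 higher (against 5.73%). Among the lower ones COL1A1 and COL6A2 were past 2-fold higher in clone 3, while COL12A1 and COL3A1 were past 2-fold lower in clone 1. COL1A1, a chain of type I collagen at chr17:50183289-50201632, had 90.0 CPM in LM2-lung and 35.8 CPM in control cells of clone 1, and 705 CPM in LM2-lung and 30.5 CPM in control cells of clone 3, a difference of -3.20 (counting SE 0.10). COL6A2, a chain of type VI collagen, had 145 CPM in LM2-lung and 185 CPM in control cells of clone 1, and 349 CPM in LM2-lung and 92.5 CPM in control cells of clone 3, a difference of -2.26 (counting SE 0.06). The LM2 library of clone 3 held the highest level of both, and the controls of COL6A2 already differed.

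COL8A1, a short-chain collagen, had 1437 CPM in LM2-lung and 1802 CPM in control cells of clone 1, and 582 CPM in LM2-lung and 2464 CPM in control cells of clone 3, a difference of 1.75 (counting SE 0.02). Its LM2 library of clone 3 was the lowest of the 4. COL12A1 had 137 CPM in LM2-lung and 769.5 CPM in control cells of clone 1, and 497 CPM in LM2-lung and 947 CPM in control cells of clone 3, a difference of -1.55 (counting SE 0.04).

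Fibroblast markers were set beside the collagens. THY1 had 0 counts in all 4 libraries, and LUM had 1 count in LM2-lung and 0 in control cells of clone 1, and 1 in LM2-lung and 3 in control cells of clone 3. COL1A2, the partner chain of COL1A1, had 51 counts in LM2-lung and 1 in control cells of clone 1, against 9 in LM2-lung and 0 in control cells of clone 3. Of the 6 measured genes on the list, 2 differences were 2-fold or more higher (against 5.73% of all genes), PDGFRA and POSTN. Another 3 were lower (against 4.92%), COL1A1, PDGFRB and COL3A1. The list's summed level was 656 CPM in LM2-lung and 151 CPM in control cells of clone 1, and 847 CPM in LM2-lung and 194 CPM in control cells of clone 3. Different genes made up most of the 2 LM2-lung sums, PDGFRA with 447 CPM in clone 1 and COL1A1 with 705 CPM in clone 3. The part of fibroblasts in the collagen differences was not tested.

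Of 32 genes of the mesenchymal state, 16 were 2-fold or more lower in clone 1 (against 7.98% of all genes) and 7 in clone 3 (against 3.33% of all genes). Their median response was -0.996 in clone 1 and -0.56 in clone 3, and 8 differences were 2-fold or more lower (against 4.92% of all genes) and 4 higher (against 5.73%). LOXL1, a lysyl oxidase that crosslinks elastin, had 6.55 CPM in LM2-lung and 73.4 CPM in control cells of clone 1, and 36.0 CPM in LM2-lung and 102 CPM in control cells of clone 3, a difference of -1.97 (counting SE 0.17). PDGFRB had a difference of -1.86 (counting SE 0.19), the reverse of PDGFRA.

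The largest negative differences were mostly those of genes expressed in both controls and lowest in LM2-lung cells of clone 1. CNR1, the cannabinoid receptor, at chr6:88139864-88166359, had 8.25 CPM in LM2-lung and 364 CPM in control cells of clone 1, and 384 CPM in LM2-lung and 426 CPM in control cells of clone 3, a difference of -5.29 (counting SE 0.14). HS6ST3, a heparan sulfate sulfotransferase, had 1.08 CPM in LM2-lung and 154 CPM in control cells of clone 1, and 59.7 CPM in LM2-lung and 158 CPM in control cells of clone 3, a difference of -5.60 (counting SE 0.37). CNR1 had a response of -0.15 in clone 3, whereas HS6ST3 was past 2-fold lower in both clones.

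COL5A3, a minor fibrillar collagen chain, had 0.308 CPM in LM2-lung and 15.5 CPM in control cells of clone 1, and 19.2 CPM in LM2-lung and 14.3 CPM in control cells of clone 3, a difference of -5.58 (counting SE 0.61). GLI2, a transcription factor of the Hedgehog pathway, had 0.308 CPM in LM2-lung and 10.8 CPM in control cells of clone 1, and 7.72 CPM in LM2-lung and 13.3 CPM in control cells of clone 3, a difference of -3.87 (counting SE 0.62). Both were near the floor in the LM2 library of clone 1 and above it in the other 3. ZNF385B, NEURL1B, EMX2 and P3H3 were likewise past 2-fold in clone 1 and not in clone 3, with differences between -4.26 and -3.67. APCDD1, an inhibitor of Wnt signalling, and SVEP1 were lower in both clones, with differences of -4.54 and -4.08. PSG4 also had a difference of -4.68, but belongs to a family of close paralogs that can share reads.

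NHS, LINC02154 and MLXIPL reached large negative differences by another route, a higher level in the LM2 library of clone 3. NHS had 9.10 CPM in LM2-lung and 13.3 CPM in control cells of clone 1, and 27.7 CPM in LM2-lung and 1.60 CPM in control cells of clone 3, a difference of -4.55 (counting SE 0.30). The 2 controls of NHS already differed. MLXIPL, the carbohydrate-responsive factor ChREBP, had 1.23 CPM in LM2-lung and 2.32 CPM in control cells of clone 1, and 13.4 CPM in LM2-lung and 1.69 CPM in control cells of clone 3, a difference of -3.75 (counting SE 0.49).

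Some genes moved in opposite directions by 2-fold or more in each clone. With more than 3 counts in each of the 4 libraries there were 8, of which 7 were higher in clone 1 and lower in clone 3. LCP1, the actin-bundling protein L-plastin, at chr13:46125920-46211871, had 187 CPM in LM2-lung and 75.8 CPM in control cells of clone 1, and 1.58 CPM in LM2-lung and 104 CPM in control cells of clone 3, a difference of 7.22 (counting SE 0.28). LCP1 was at its lowest in the LM2 library of clone 3 and expressed in the other 3. It stood at 17.0 CPM in the bleomycin library, below the control of clone 1.

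STC1, the secreted hormone stanniocalcin-1, had 76.8 CPM in LM2-lung and 11.5 CPM in control cells of clone 1, and 6.27 CPM in LM2-lung and 25.2 CPM in control cells of clone 3, a difference of 4.71 (counting SE 0.20). SLC16A3, a lactate exporter, had 78.5 CPM in LM2-lung and 23.4 CPM in control cells of clone 1, and 12.0 CPM in LM2-lung and 28.5 CPM in control cells of clone 3, a difference of 2.98 (counting SE 0.15). For both, the LM2 libraries lie on opposite sides of the controls, and the controls of STC1 were past 2-fold apart, higher in clone 3. SERPINE2, an inhibitor of thrombin and plasminogen activators, and VNN1, a pantetheinase, did likewise, with differences of 2.87 (counting SE 0.15) and 3.77 (counting SE 0.46). CXCL12, the ligand of CXCR4, was the 1 gene of the reverse kind, with 7.94 CPM in LM2-lung and 31.5 CPM in control cells of clone 1, and 88.6 CPM in LM2-lung and 39.4 CPM in control cells of clone 3, a difference of -3.14 (counting SE 0.17).

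Genes with 3 counts or fewer in a library are given as levels and ratios. INHBA, the activin A subunit, had 353 counts in LM2-lung and 1 in control cells of clone 1, a ratio of 398 (95% counting interval 70.99 to 15768). In clone 3 it had 0 counts in LM2-lung and 9 in control cells. With the 0 set to the floor of 3 counts, its level was 2.23-fold lower in LM2-lung cells. That value leaves out the counting error of the 9 control counts, so the true ratio can be smaller. CYP4B1, a cytochrome P450, had 2 counts in LM2-lung and 2951 in control cells of clone 1, 1308-fold lower (95% counting interval 362 to 10808). In clone 3 it had 752 counts in LM2-lung and 5432 in control cells, 5.36-fold lower (4.97 to 5.80). KDR, a VEGF receptor, had 2 counts in LM2-lung and 1022 in control cells of clone 1, and 102 counts in LM2-lung and 2290 in control cells of clone 3. CYP4B1 and KDR were thus lower in both clones, by a larger ratio in clone 1.

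Most cell cycle genes had small differences below 0. Of 46 G2/M and mitosis genes, the difference was below 0 in 44 and 2-fold or more lower in 1, TOP2A (against 4.92% of all genes). The median difference of the 46 genes was -0.49. Their median response was -0.22 in clone 1 and 0.25 in clone 3, and the bleomycin library stood at 0.64. TOP2A, a topoisomerase of dividing cells, had 649 CPM in LM2-lung and 973 CPM in control cells of clone 1, and 1430.4 CPM in LM2-lung and 1069 CPM in control cells of clone 3, a difference of -1.004 (counting SE 0.02). Of 36 G1/S and replication genes, 5 differences were 2-fold or more lower (against 4.92% of all genes) and 0 higher, with a median of -0.45. E2F2, a cell cycle transcription factor, had 1.77 CPM in LM2-lung and 13.3 CPM in control cells of clone 1, and 16.7 CPM in LM2-lung and 16.8 CPM in control cells of clone 3, a difference of -2.81 (counting SE 0.33).

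CDKN1A, the cyclin-dependent kinase inhibitor p21, had 63.7 CPM in LM2-lung and 13.7 CPM in control cells of clone 1, and 27.5 CPM in LM2-lung and 19.0 CPM in control cells of clone 3, a difference of 1.68 (counting SE 0.15). It was the 1 gene of 25 on the p53 target list with a difference of 2-fold or more, against 10.7% of all genes, so the list's share was not above that of all genes. The list of cell cycle inhibitors and dormancy genes had a median of 0.26 over 16 genes. Of these, 3 were 2-fold or more higher (against 5.73% of all genes) and 0 lower. On both lists the median difference was under 0.5 in size.

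Secreted proteases and their inhibitors had a median difference of 1.21 over 11 genes, with 6 higher by 2-fold or more (against 5.73% of all genes) and 1 lower (against 4.92%). SERPINB5, maspin, had 188 CPM in LM2-lung and 18.8 CPM in control cells of clone 1, and 39.7 CPM in LM2-lung and 19.6 CPM in control cells of clone 3, a difference of 2.30 (counting SE 0.13). Maspin passed 2-fold in both clones. TIMP3, an inhibitor of metalloproteinases, had 2.47 CPM in LM2-lung and 29.1 CPM in control cells of clone 1, and 1.46 CPM in LM2-lung and 2.82 CPM in control cells of clone 3. Its difference of -2.60 (counting SE 0.43) goes with controls that already differed.

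Acute-phase and complement genes had a median difference of 1.42 over 8, with 5 higher by 2-fold or more (against 5.73% of all genes) and 0 lower. With no filter other than a count above 0 the median was 0.66. SAA1, serum amyloid A, had 128 CPM in LM2-lung and 65.2 CPM in control cells of clone 1, and 40.9 CPM in LM2-lung and 162 CPM in control cells of clone 3, a difference of 2.95 (counting SE 0.09). Its controls differed 2-fold or more, and SAA1 and SAA2 are close paralogs that can share reads. C3, the central complement component, had 1850.1 CPM in LM2-lung and 668 CPM in control cells of clone 1, and 860 CPM in LM2-lung and 1156 CPM in control cells of clone 3, a difference of 1.90 (counting SE 0.02).

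The other lists had smaller medians. They were 0.63 for TGF-beta and BMP genes, 0.57 for immediate early genes, 0.50 for glycolysis and hypoxia genes and 0.46 for cholesterol synthesis. They were 0.39 for unfolded protein and ATF4 genes, 0.24 for Notch genes and 0.20 for YAP targets, against 0.08 over all genes. With library totals alone the YAP median was -0.05 and the Notch median -0.00, against -0.17 over all genes. With no filter other than a count above 0 the Notch median was 0.56. Of 9 Notch genes, 3 were 2-fold or more higher (against 5.73% of all genes), among them the ligand JAG1 at 1.80 (counting SE 0.08). Another 3 were lower (against 4.92%), among them the receptor NOTCH3 at -2.03 (counting SE 0.26).

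Genes of a lung metastasis signature that is raised in LM2-type cells were set beside the comparison, because the labels do not say how LM2 cells were kept out of the sort. Of 15 measured, the difference was 2-fold or more higher in 9 (against 5.73% of all genes) and lower in 0, with a median of 1.14. The median was 2.13 with a mean of 1 CPM or more and 1.69 with no filter other than a count above 0. Their summed level was 3485 CPM in LM2-lung and 1258 CPM in control cells of clone 1, and 1521 CPM in LM2-lung and 1572 CPM in control cells of clone 3. EREG alone made up 1952 CPM of the LM2-lung sum and 89.9 CPM of the control sum of clone 1. In clone 3 it made up 212 CPM and 92.1 CPM. The bleomycin library, from lungs for which no LM2 cells are named, stood at 1750.1 CPM, of which EREG was 581 CPM. Members of this list such as EREG, PTGS2 and VCAM1 are also on the inflammatory or MAPK lists, and the part of LM2 cells in the differences was not tested.

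The difference of responses varied by chromosome. Its median was 0.52 over 621 genes of chromosome 11, 0.45 over 430 of chromosome 4 and 0.41 over 205 of chromosome 13, against -0.002 to 0.10 on each other autosome and X. The difference was not even along them. Medians of windows of 20 Mb ran from 0.26 to 0.63 on chromosome 11 and from 0.11 to 0.61 on chromosome 4. On chromosome 13 they ran from 0.03 over 20 genes to 0.80 over 19 genes. On these 3 chromosomes the median response was 0.46, 0.38 and 0.31 in clone 1, against -0.07, -0.03 and -0.11 in clone 3. The bleomycin library of clone 1 had medians of 0.07, -0.01 and 0.13 there. Its ratio was not even along chromosome 11. Over 123 genes of the first 20 Mb the bleomycin median was 0.60, beside a clone 1 response of 0.45 to the LM2 lung. In the other windows of 20 Mb on chromosome 11 the bleomycin median lay between -0.05 and 0.08. Chromosomes 4, 11 and 13 hold 11.5% of the genes and 31.2% of those with the higher difference, at 15.5% of their genes against 4.46% elsewhere. Lower differences took 3.74% of their genes against 5.07% elsewhere.

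**Figure D5:**
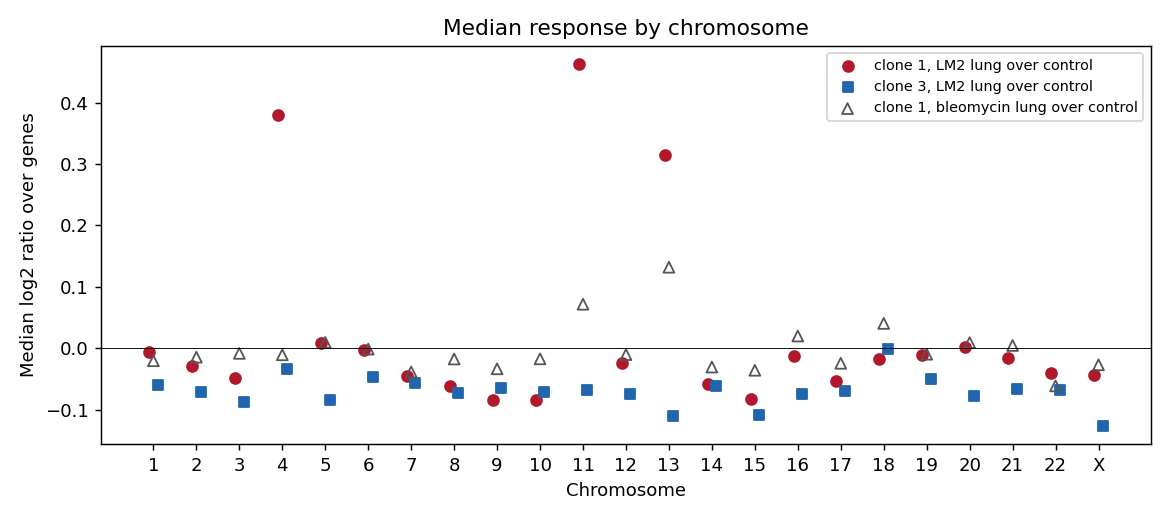
Median log2 response of clone 1 and of clone 3 to the LM2 lung, and median ratio of bleomycin over control in clone 1, over the genes of each chromosome. Clone 1 from the LM2 lung stands at 0.46, 0.38 and 0.31 on chromosomes 11, 4 and 13 and near 0 on the other autosomes and X.

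CXCL8, CXCL3, EREG, AREG, EPGN and PDGFRA lie on chromosome 4. With the median of its own chromosome subtracted, the difference was 5.37 for CXCL8, 3.74 for PDGFRA, 3.14 for AREG and 2.79 for EREG, and the median of the inflammatory list was 2.37 in place of 2.49. The part of chromosome-wide shifts in the other differences was not tested, and the counts after this subtraction were 494 higher and 632 lower.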

How the data were processed

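Per the labels' protocols, oligo-dT captured RNA went through the strand-specific KAPA mRNA HyperPrep kit. The submitters' processing notes name STAR 2.7.1a and hg38. How genes were counted, with which annotation release and strand setting, and how mouse reads were handled is not given in the sources used here, so overlapping genes and paralogs are uncertain. The authors deposited unnormalised gene counts in whole numbers, 1 column for each of 6 libraries. Of the identifiers, 58216 matched GENCODE release 29 (GRCh38) and 120 did not.

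Computed here were TMM factors from all 6 libraries (edgeR 4.0.16, R 4.3.3), log2 CPM with a prior count of 2 scaled to library size, the response of each clone and their difference. The filter of 4 CPM used library totals. Counting standard errors came from the counts with the prior count added. Intervals and floors hold counting error alone, because PCR copies without molecular identifiers can be counted more than once. No test was possible with 1 library per arm. The calculation was tested on simulated data.

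The members, the 28 gene lists and the rules were chosen with earlier results of these data known. Named genes have over 3 counts in each of the 4 libraries, leaving out locus identifiers, antisense genes, pseudogenes and mitochondrially encoded genes. They are the 14 largest differences in each direction, up to 6 opposite and up to 6 shared responses, up to 4 per list, and ITGB4. The shared ones are those of 4-fold or more in both clones with the smallest differences. Genes with 3 counts or fewer in a library were named separately, up to 5 in each direction by level. Some genes that the rules name are not reported here. The 11 alternatives changed the scaling, prior count, filter, threshold or chromosome centring. Promoter sequences are from the RefSeq table for GRCh38.p14.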

Additional observations from a re-analysis of the deposited data

Results flagged for a closer look

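Genes are listed here because the single library pairs of the clones moved in opposite directions by 2-fold or more. The difference between the clones was not tested, since each arm is 1 library. The log2 difference of responses was 7.22 for LCP1, 4.71 for STC1, 3.77 for VNN1, 2.98 for SLC16A3 and 2.87 for SERPINE2, which were higher in LM2-lung cells of clone 1 and lower in those of clone 3. It was -3.14 for CXCL12, which was lower in LM2-lung cells of clone 1 and higher in those of clone 3. INHBA had a fitted difference of 9.23, which depends on the prior count because the LM2 library of clone 3 held 0 counts.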

How the results depend on the processing

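The 626 genes with a difference of 2-fold or more higher in clone 1 and the 537 lower became 399 and 870 with library totals alone, 3174 and 3509 with no filter other than a count above 0, and 152 and 142 at a 4-fold threshold. The lower count was 1033 with a mean of 1 CPM or more and 311 with 10 CPM or more, where the higher counts were 890 and 493. With fewer or more genes tested, or a higher threshold, counts move by construction; with library totals the median of all genes moved by -0.24 (log2). RLE factors (612 and 557), upper quartile factors (656 and 527), prior counts of 0.5 (632 and 552) and 5 (617 and 523), chromosome centring (494 and 632) and 2 counting standard errors (623 and 533) stayed within 1.5 times. Of the recomputed values of single genes, 1086 stayed within the 95% counting interval of the reported value and 50 did not. Of list medians, 209 stayed within 0.25 and 7 did not. Among genes and lists with a difference of 2-fold or more, 0 changed sign.

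No paired analysis was possible because each clone has 1 library per condition, so the clone numbers already enter each response and leave no replicate. Depth limits genes with few counts: 46 of the 10919 genes had 3 counts or fewer in at least 1 of the 4 libraries, and 37 of these had differences of 2-fold or more. Library, mouse, sort and clone cannot be told apart in any of these values.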
